A study of Mus musculus with 4 samples.

Results

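H3K4me3, a trimethylated lysine of histone H3 that marks active gene starts, was profiled by ChIP-seq in ovaries of adult Swiss mice, and the differential peaks that fell into 4 genomic windows, at Pik3c3, Chd9, Ust and Camk2b, were examined. The treated group was the female progeny of mice gavaged between E6.5 and E15.5 of gestation with the organochlorine insecticide chlordecone (CD), at 100 µg/kg/day in 150 µl of olive oil. The control group came from mice given the same volume of oil. Each group had 2 samples, and each sample held 2 ovaries from different animals. All animals were of the Swiss strain, whereas the sequence used below is that of the C57BL/6J reference genome. The ovary is a mixture of oocytes, granulosa, theca and stromal cells, and the list holds no unchanged peak from which ovarian marker genes could be checked.

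The 9 peaks described here are every row of the deposited list, of 151, that lies in the 4 windows, whatever its fold change (FC). The windows were selected on this same list, and the list itself holds only peaks with an FC above 1.5 and a false discovery rate under 0.1. Its values, the signed FC of CD over control, therefore chose these peaks and are given as a description, with no test. No value per sample, no error and no depth accompany the FC, so the spread between the 2 samples of a group is unknown, and overlap of the groups cannot be examined. The locus named for Pik3c3 lies on chromosome 18, where its peak 1 spans bases 30269221 to 30269303 and its peak 2 bases 30269426 to 30269501. The Chd9 locus had 1 peak on chromosome 8, from 90887158 to 90887272. At Ust, 3 peaks were listed on chromosome 10, from 8548762 to 8548957, from 8549130 to 8549207 and from 8549524 to 8549672. At Camk2b, 3 peaks were listed on chromosome 11, from 6006786 to 6006907, from 6007102 to 6007276 and from 6007571 to 6007763. All positions are those of mm10, counted from 1.

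All 4 windows hold a retroelement flanked by long terminal repeats (LTRs). Such elements are copied through RNA: the RNA is reverse transcribed from a cellular tRNA that pairs with a primer site just after the 5′ LTR, and the DNA is inserted elsewhere in the genome. Insertion duplicates a few bases of host DNA on both sides, and it leaves a pair of LTRs that are identical at the time of insertion. The 5′ LTR carries the promoter of the element. In most mammalian tissues these copies are kept silent by DNA methylation and by repressive histone marks laid down through KRAB zinc finger proteins and Trim28, whereas H3K4me3 marks active start sites. Because copies of a family resemble each other, a short read from such an element often matches many places.

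The ends of the elements are shown first, because they define what was inserted and where. At each junction below, 12 host bases and 10 element bases are printed 5′ to 3′ on the strand of the element, and the capitals mark the host bases that are present on both sides of the insertion. Sequences were read from the GRCm38 reference, the same build as mm10.
Chd9 5′ junction: acctagtgATATtgaaagaccc
Chd9 3′ junction: gagtctttcaATATagacctgt
Ust 5′ junction: acaaacatGTGCtgaaagaccc
Ust 3′ junction: gggtctttcaGTGCctgcatgc
Camk2b 5′ junction: gctataggCAGTtgaaagaccc
Camk2b 3′ junction: gggtctttcaCAGTgagcccac
The duplicated host bases differ between the 3 loci, as they belong to separate insertion sites, while the elements begin with the same 10 bases at all 3 sites. The primer site lies 3 bases after the 5′ LTR and has the same 18 bases in these 3 elements.
Primer site: tggaggtcccaccgagat
Its 18 bases pair with the 3′ end of tRNA-Gln at 18 of 18 positions, counting the CCA tail.

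Of the 9 peaks, 3 are shown next, because the results turn on the bases in which peaks differ from their nearest relatives. Each is printed on the strand of its element, and the capitals mark bases that differ from the closest other place in the reference, found with 250 bp on both sides.
Chd9 peak: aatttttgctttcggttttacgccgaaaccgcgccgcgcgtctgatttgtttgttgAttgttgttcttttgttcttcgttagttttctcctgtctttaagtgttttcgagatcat
Camk2b peak 1: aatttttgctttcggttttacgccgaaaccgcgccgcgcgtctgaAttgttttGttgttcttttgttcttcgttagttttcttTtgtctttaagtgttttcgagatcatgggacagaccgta
Ust peak 2: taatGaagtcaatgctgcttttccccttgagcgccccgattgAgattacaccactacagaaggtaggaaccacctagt
The Chd9 peak has a single capital, at its position 57, and its closest place is 99.8% identical over 615 bp. Camk2b peak 1 has 3 capitals and a closest place at 97.8%, and Ust peak 2 has 2 capitals and a closest place at 98.3%. The Ust and Camk2b peaks that are not printed differ at more bases. Camk2b peak 2 has 6 such bases, and Camk2b peak 3 and Ust peak 3 have 9 each. Ust peak 1 has 32, with a closest place at 94.0%. The first bases of the Chd9 peak and of Camk2b peak 1 are the same: the peaks begin at the same point of the element, 381 and 379 bp after the 5′ LTR.

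The 4 elements had both ends of an insertion. Their inner parts, of 4293 to 5740 bp, were shorter than the 7682 and 7610 bp of the longer relatives described below. The Pik3c3 element spans chromosome 18 from 30266512 to 30272200 (5689 bp), the Chd9 element chromosome 8 from 90886291 to 90891958 (5668 bp), the Ust element chromosome 10 from 8544135 to 8551268 (7134 bp) and the Camk2b element chromosome 11 from 6005652 to 6011515 (5864 bp). Their LTRs measured 698, 487, 697 and 756 bp in this order. In each element the pair of LTRs was identical, with 0 mismatches, each insertion was flanked by a duplication of 4 host bases, and the primer site matched a tRNA-Gln gene at 18 of 18 bases. The Ust element lies on the minus strand and the other 3 on the plus strand. Sequence with at least 10 places elsewhere, by alignments of at least 100 bp, covered 96.5% to 100% of the elements but only 1 to 31 of the 200 bases on either side, so the repeated stretch ends close to the LTRs. Whether the Swiss animals carry these insertions was not measured.

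Among themselves the 4 elements were alike but not the same. Over the 6 pairs, the identity of aligned segments ran from 89.6% to 95.5%, with a median of 91.6%. The closest pair was Pik3c3 and Ust, with 95.5% over 5475 bp in 5 segments, followed by Pik3c3 and Camk2b with 94.0%. The Chd9 element stood farthest from the other 3, at 89.6% to 90.7%, and it also has the shortest LTR. Base composition varied little, with a G and C content of 51.9% to 53.5%. The elements held 226 to 262 CpG sites, the sites of DNA methylation in mammals, or 3.67 to 4.03 per 100 bp.

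Copies of these elements were spread over the genome, in numbers that differed by locus under the thresholds used. With 250 bp on both sides of its peaks, the Ust window had 67 other copies that matched 80% or more of its length with 90% or more of the aligned bases identical, and the Camk2b window had 64. Both sets reached 20 chromosomes. The Chd9 window had 13 such copies and the Pik3c3 window 4. The difference between loci rested on the thresholds: the Chd9 window had 75 copies at an identity of 80%, as had the Ust window, and 60 without flanks or 66 with 500 bp on each side, and the Pik3c3 window had 47 at a coverage of 50%. The copies of the Ust window had a median identity of 94.2% and reached 95.5%, and those of the Camk2b window had a median of 96.0% and reached 97.2%. The order changed when whole elements were compared, since the Ust element then had 48 copies, with a closest identity of 98.2%, against 10 for Chd9, 8 for Camk2b and 7 for Pik3c3. Of the copies of the whole Ust element, 13 lie inside a protein-coding gene. None of the copies of the 4 windows at these thresholds held a listed peak outside the 9 peaks themselves.

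**Figure D1:**
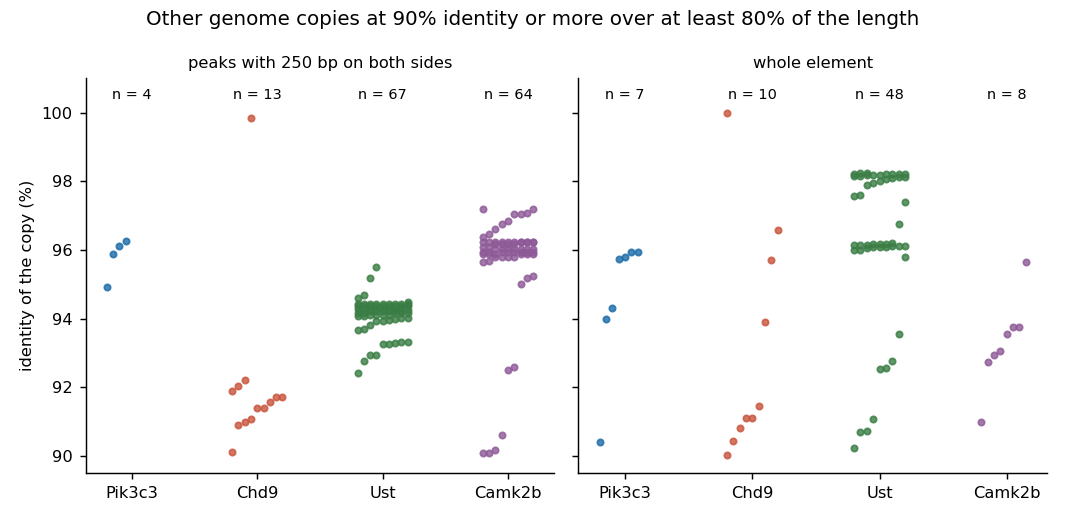
Identity (%) of each other genome copy, 1 point per copy, for the peaks with 250 bp on both sides (left) and for the whole element (right) at the 4 loci. The Ust and Camk2b windows have 67 and 64 copies, with medians of 94.2% and 96.0%, while 1 copy of the Chd9 element stands alone near 100%.

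The Chd9 element had a nearly perfect twin. It lies on chromosome 4 from 133095957 to 133101623, outside any protein-coding gene and 28882 bp from the nearest start site, that of Wasf2, an actin regulator. The twin measures 5667 bp and differs from the Chd9 element by 1 base: position 924 of the Chd9 element, counted from its 5′ end, is missing in the twin. The host DNA on the sides was unrelated, with 28.5% and 29% of 200 bases matching in a comparison base by base, so the shared sequence is that of the element. Position 924 lies inside the Chd9 peak, which runs from 868 to 982, and is the capital at position 57 in the sequence printed above, 1 bp from the centre of the peak. Of the 5619 words of 50 bases (50-mers) in the Chd9 element, 50 occur at a single place in the reference, and all 50 contain position 924. The reads of the study were 50 bases long, so among reads that lie wholly in the element, only those across that base match the Chd9 copy of the reference exactly and nowhere else. Reads across the junctions with host DNA were not counted. No peak was listed at the twin.

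The same arrangement was examined in the other elements. A 50-mer was called unique when neither strand of the assembly holds it elsewhere. In the Pik3c3 element, 73.7% of the 50-mers occur elsewhere, in the Ust element 85.4% and in the Camk2b element 67.0%, against 99.1% in the Chd9 element. Inside the peaks the picture was different. Of the 61 50-mers that lie wholly in the 2 Pik3c3 peaks, 57 were unique (93.4%), against 32.6% of those between the LTRs that touch no peak. For the 3 Ust peaks the unique share was 95.3% of 276, against 13.6% off the peaks. The Camk2b peaks had 92.1% of 343 unique, against 41.0%, and the Chd9 peak 75.8% of 66, against 0 of the 4481 50-mers off the peak. Each of the 4 elements thus had a higher unique share in its peaks than in the rest of its inner part, and this order also held for words of 36, 40 and, where a peak was long enough, 100 bases. Overlapping 50-mers share bases and are not independent, so no test was made.

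**Figure D2:**
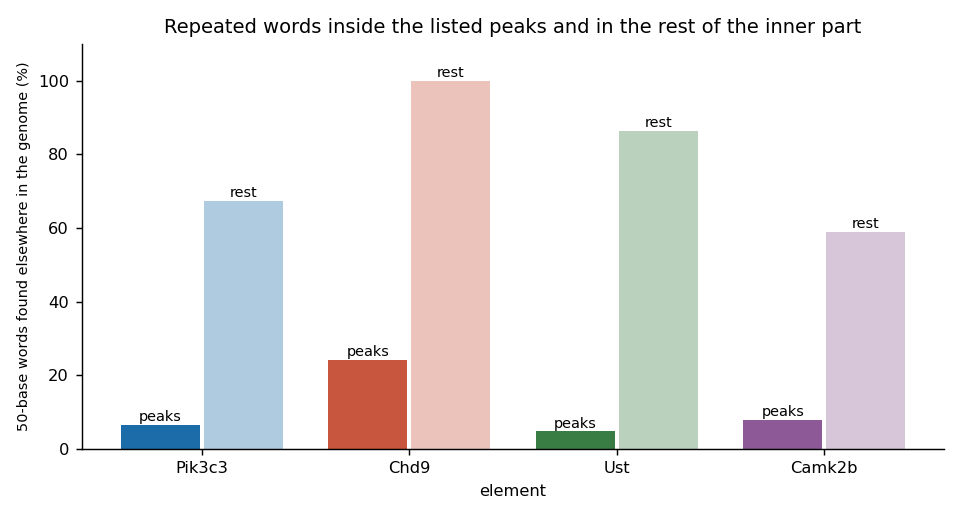
Share of 50-mers found elsewhere in the genome (%) for each element, in the listed peaks (dark bars) and in the part between the LTRs that touches no peak (light bars). In all 4 elements the dark bar is far below the light one.

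How far the peaks themselves were repeated depended on how exact a match was asked. Of their 746 50-mers, 8.04% occur elsewhere exactly, close to the 5.76% found in the other 142 listed peaks. Single peaks ranged from 0% for Pik3c3 peak 2, Ust peak 2 and Camk2b peak 1 to 24.2% for the Chd9 peak. When up to 2 mismatches were allowed, 70.0% of the 50-mers had another place. Under this looser match, all 50-mers of Pik3c3 peak 1 and of Ust peaks 2 and 3 had another place, and none of Pik3c3 peak 2 did. With 250 bp added on both sides, the exact shares rose to 52.6% at Ust peak 1 as the lowest and 91.2% at the Chd9 peak as the highest. All 9 peaks then had at least 50% of their 50-mers elsewhere, against 56 of the other 142 listed peaks. Since the windows were picked as repeats, this last contrast is a description of the choice.

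Runs of at least 20 consecutive unique 50-mers were then listed along each element. There were 21 runs in the Pik3c3 element, 1 in Chd9, 18 in Ust and 27 in Camk2b, and the 9 peaks overlapped 13 of these 67 runs. Every peak overlapped at least 1 run. Off the peaks, unique 50-mers made up 32.6% of the inner part in Pik3c3, 41.0% in Camk2b, 13.6% in Ust and 0% in Chd9. In Pik3c3 and Camk2b, other stretches as wide as a peak would thus often overlap a run too. Neither this overlap nor the distances below were compared with stretches placed elsewhere in the elements. The centre of the peak lay within 10 bp of the centre of a run for Chd9 (1.0 bp), Ust peak 2 (3.5 bp), Camk2b peaks 1 (3.5 bp) and 2 (6.5 bp) and Pik3c3 peak 1 (7.5 bp), and the other 4 peaks were 18 to 47.5 bp off. A run of exactly 50 unique 50-mers is what 1 private base gives, and 24 of the 67 runs had this length. Ust peak 2 sits on such a run, whose common base, at position 2104 of the element, is the capital at position 43 of the printed peak. The other 54 runs had no listed peak. In Ust and Camk2b the runs with a peak came early: in Ust they were 5 of the first 6 runs of 18, and in Camk2b the 4th to 7th of 27. In Pik3c3 they were the 10th to 12th of 21. The list does not tell whether H3K4me3 was absent from the runs without a listed peak or was present in both groups alike.

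**Figure D3:**
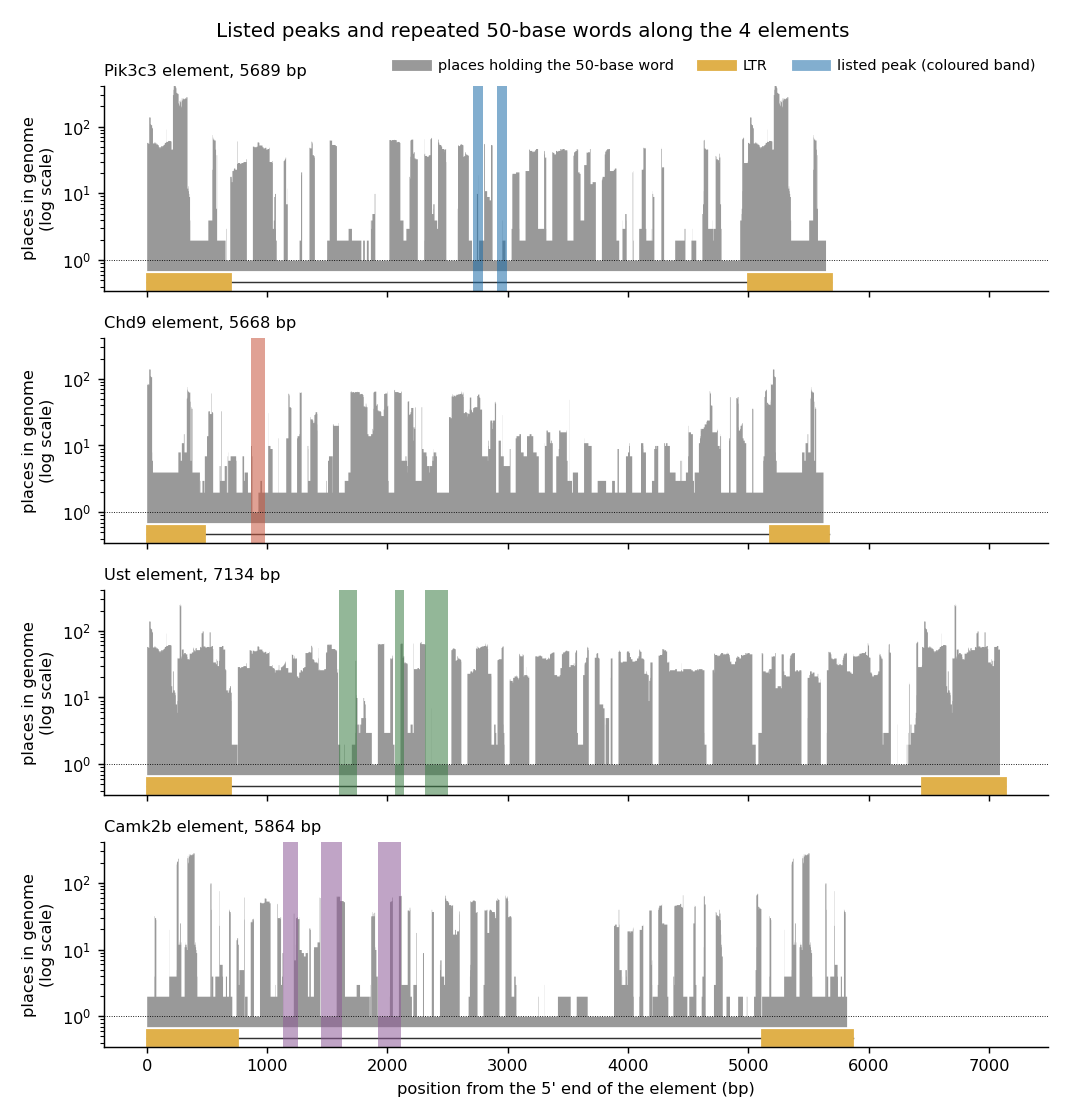
Number of genome places that hold each 50-mer (log scale, grey) along the 4 elements, in bp from the 5′ end, with LTRs in yellow and the listed peaks as coloured bands. The bands cover stretches where the grey profile drops to 1 place, and all 9 lie between the LTRs.

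All 9 peaks lay between the LTRs, and none overlapped an LTR, where 50-mers are repeated by the pair of LTRs alone. From the 5′ end of the element, the Chd9 peak ran from 868 to 982, the Camk2b peaks from 1135 to 1256, from 1451 to 1625 and from 1920 to 2112, and the Ust peaks 3, 2 and 1 from 1597 to 1745, from 2062 to 2139 and from 2312 to 2507. The peaks were 76 to 196 bp wide and held 2 to 13 CpG sites each. Their G and C content spread from 40% at the Chd9 peak to 62.9% at Camk2b peak 2, wider than that of the whole elements. The 7 peaks of Chd9, Camk2b and Ust ended no farther than 36% along their element. The 2 Pik3c3 peaks were farther in, from 2710 to 2792 and from 2915 to 2990, or up to 52.6% of the length. By alignment, the 83 bp of Pik3c3 peak 1 matched bases spread from 2646 to 4215 of the Ust element. Positions past that point thus do not correspond directly between these elements. Projected onto each other by alignment, the Chd9 peak and Camk2b peak 1 shared 109 bp, at 97.2% identity. No other pair of peaks from different elements shared a base. The corresponding stretch of the Ust element matched the Chd9 peak at 98.1% over 108 bp without a listed peak, and that of the Pik3c3 element at 98.2% over 109 bp.

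The listed FC was above 0, that is higher in CD, for all 9 peaks. In the whole list, 89.4% of the 151 peaks were higher in CD, so the direction of the 9 is close to the background. The Pik3c3 peaks had FC values of 1.51 and 4.77, the lowest and the highest of the 9, although 122 bp separate them. The Chd9 peak had an FC of 1.75. The Ust peaks had 2.21, 2.07 and 1.95, and the Camk2b peaks 2.45, 2.1 and 2.34, so the values within these 2 elements were close together. The median of the 9 was 2.1, against 1.88 over all 151 peaks. An absolute FC of at least 2 was listed for 6 of the 9 peaks, against 39.1% of the list. Pik3c3 peak 2 ranked 15th by absolute FC and Pik3c3 peak 1 ranked 148th. The latter stands just inside the threshold of the list, whose lowest absolute FC was 1.5, and no peak outside the threshold is in the file. Peaks of 1 element share their source and are not replicates of CD exposure. The nearest listed peak outside each element was distant: 298221 bp at Camk2b, with an FC of 4.59, 1056382 bp at Ust, with an FC of 1.78, 6638253 bp at Chd9, with an FC of 1.78, and 13208186 bp at Pik3c3. The study's tables describe that last peak as present in CD alone, so its listed value is not a measured ratio.

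**Figure D4:**
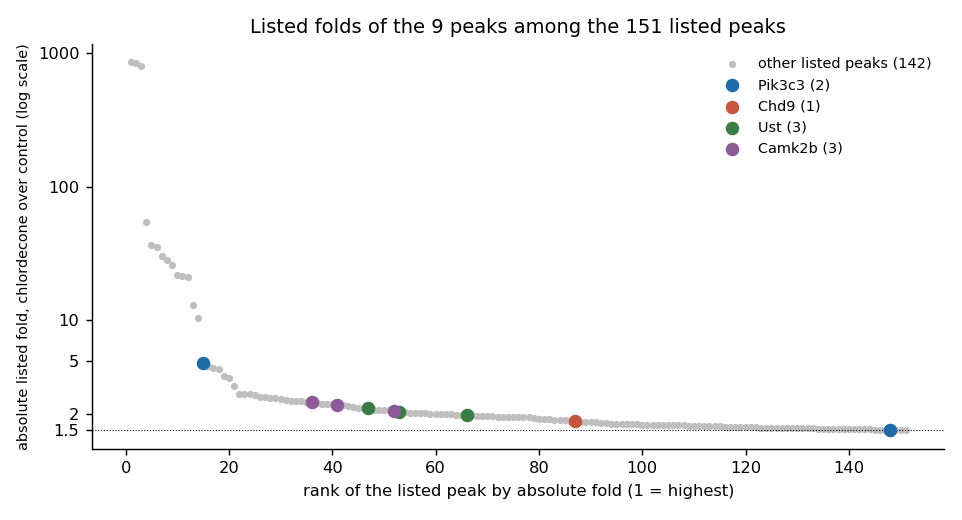
Absolute listed FC of CD over control (log scale) of the 151 listed peaks, ranked from highest to lowest, with the 9 peaks coloured by element. The coloured points lie between 1.51 and 4.77, far under the values above 10 at the left end, of which the 3 above 100 are no measured ratios because the study describes those peaks as present in only 1 group, and the dotted line marks the threshold of 1.5.

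The host genes differ in function and in their position relative to the element. Pik3c3 encodes the class III phosphatidylinositol 3-kinase, which makes the lipid that recruits proteins to endosomes and forming autophagosomes. The element lies on the same strand, 547 bp upstream of the annotated gene on chromosome 18, from 30272747 to 30348126 in GENCODE. A long non-coding RNA of GENCODE, AC102496.1, lies wholly inside the element, with exons from 738 to 760 and from 4463 to 5622 of it. RefSeq holds a predicted Pik3c3 transcript that starts 897 bp before the element and another that starts inside it, at position 1007. Both are spliced to an exon that begins at position 4463 of the element, the same point as the second exon of the non-coding RNA. In these predicted models both peaks fall into the first intron of Pik3c3, whereas in GENCODE they are upstream of the gene and in the intron of the non-coding RNA.

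Chd9 encodes a chromodomain helicase, a remodeller that moves nucleosomes with energy from ATP. Its element lies inside the gene, which spans chromosome 8 from 90828352 to 91054516, on the same strand, in intron 2 of 39 of its longest coding transcript, an intron of 82489 bp. The nearest start site of a coding Chd9 transcript is 16656 bp from the element and 21342 bp from the peak. A Chd9 transcript that GENCODE classes as a processed transcript, not as protein-coding, has its last exon inside the element, from 4687 to 5231, and ends there, 50 bp into the 3′ LTR, while the peak is at the other end of the element.

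Camk2b encodes the beta subunit of calcium/calmodulin-dependent protein kinase II, best known from neurons. Its element also lies inside the gene (chromosome 11, from 5969644 to 6066362), in intron 3 of 20, but on the opposite strand. The nearest start sites of protein-coding genes are those of Ykt6, a SNARE protein of vesicle fusion, at 49959 bp from the element, and of Camk2b itself at 54023 bp. A start site of a non-coding Camk2b transcript was closer, at 6338 bp from peak 1. Ust encodes uronyl 2-O-sulfotransferase, which adds sulfate to chondroitin and dermatan chains. The gene spans chromosome 10 from 8204756 to 8518825. Its element is between genes, on the strand of Ust and 25310 bp upstream of its start. The next gene on the other side, Sash1, a scaffold protein of signalling, starts 205493 bp away. In all, 4 of the 9 peaks, those of Chd9 and Camk2b, lie in introns of protein-coding genes and none in an exon. At 3 of the 4 loci the element and the gene have the same orientation.

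**Figure D5:**
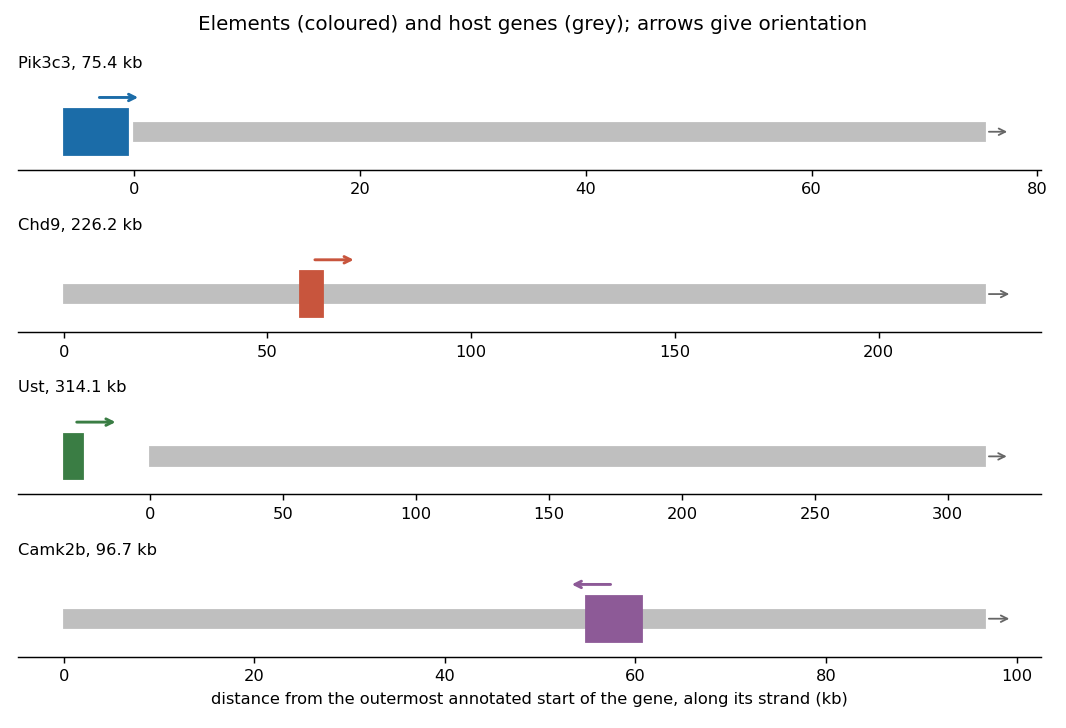
Position of the 4 elements (coloured boxes) relative to the host gene (grey bar), in kb from the outermost annotated start of the gene along its strand, with arrows for orientation. The Pik3c3 and Ust elements are upstream of the gene, the Chd9 and Camk2b elements inside it, and the Camk2b element points against its gene.

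Related genes were looked up in 5 lists of 45 genes, all found in the annotation. Within 10 kb of any start site, 2 of the 45 had a listed peak, Pik3c3 and Camk2b, both through the peaks described here. Among all 22028 protein-coding genes, 0.368% had one at that distance. The host genes were chosen for their peaks, so their count is set by the choice, and at this background the absence of a peak at the other genes of the lists says nothing particular about them. No other member of the Pik3c3 complex (7 genes), of the CaM kinase II genes (4) or of the sulfotransferases (8) had a listed peak at that distance, nor did any of the 9 CHD remodellers. None of the 17 genes that silence retroelements, such as Trim28, Setdb1, Dnmt1 and Zfp57, had one either. The peak nearest to Trim28, the corepressor recruited by KRAB zinc finger proteins, was 48734 bp away, with an FC of 1.65. The methylated hexamer TGCCGC is the binding site of the zinc finger protein ZFP57. Searched on both strands, it was found in 0 of 9 windows of 300 bp centred on the peaks and in none of the 4 elements. Windows of that length held it at 10 of the 142 other listed peaks (7.04%) and at 11.6% of 32851 RefSeq promoters. At such shares, its absence from 9 windows says little. By comparison with published binding data, the study itself listed both Pik3c3 peaks under ZFP57 targets and the Chd9 peak under TRIM28 targets. Binding of either protein to these copies was not tested here.

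Of the listed peaks elsewhere, 10 lay in sequence that aligned with the 4 elements over at least 100 bp. All were in a pair of longer relatives. An element of 8728 bp on chromosome 8, from 123425804 to 123434531 in an intron of Def8, held 9 of them. The FC of 8 of these ran from 13.0 to 54.3, and the study's tables describe the other one as present in CD alone. An element of 8670 bp on chromosome Y, from 4795459 to 4804128, held 1, with a listed FC of 10.4. Ovaries are female tissue without a Y chromosome, so this value is no measurement of that copy in these animals. Both had identical LTRs, of 523 and 530 bp, but a primer site for tRNA-Pro in place of tRNA-Gln. Their identity with the 4 elements was 83.4% to 87.2% over the aligned segments. The Def8 element differed from the 4 in coverage: its peaks took up 77.1% of its length, against 2.03% at Chd9 to 8.36% at Camk2b. It also had few repeated 50-mers, 29.3% of all, against 67.0% or more in the 4. The chromosome Y element, with 62.3% repeated, had 0.957% of its length in its 1 peak. How far repeated sequence limits what can be listed in the 4 elements was not tested.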

How the data were processed

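H3K4me3 ChIP-seq was available for 2 CD and 2 control ovary samples. Per the labels and the study's methods, reads were demultiplexed with bcl2fastq 2.17.1.14, mapped to mm10 with Bowtie 1.0.0 at a seed length of 40, and peaks were called with MACS2 2.1.1 at a p threshold of 1e-05 and a shift of 73 bp and compared with limma. How reads with several matches were treated is not given in the sources used here. The authors' deposited file is a list of 151 differential peaks with 1 score each, the signed fold of CD over control, without depth, p-values or unchanged peaks. These folds are the authors' own comparison. They are given as listed because they define the peaks. No new test between groups was made, since the list holds no value per sample and the reads were not processed again.

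Elements were delimited in the GRCm38 reference by their paired LTRs, the flanking duplications and 18-base matches to 403 tRNA genes. Copies were searched with megablast of BLAST+ 2.17.0 (identity of at least 90%, coverage of at least 80%, 250 bp on each side, hits within 1000 bp joined). The copy search found 20 of 20 planted copies in simulated sequence and 0 of 20 below the thresholds. 50-mers were counted on both strands with Python 3.11.15 and Numba 0.67.0, with tools checked on simulated sequence. Genes are those of GENCODE M21 and RefSeq. All listed peaks in the 4 windows, their hosts or nearest genes, and peaks in related elements are named. The peaks, gene lists and searches were chosen with earlier results of these data known, and the Def8 and chromosome Y elements after their values were seen.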

Additional observations from a re-analysis of the deposited data

How the results depend on the processing

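No paired analysis was possible because the list holds no value per sample. Counted once per locus, 4 of 4 loci were higher in CD. Of the 9 peaks' words, 22.6% occurred elsewhere at 40 bases, 31.4% at 36 bases, 0% at 100 bases (peaks of at least that width), 70.0% at 50 bases with up to 2 mismatches, and 69.6% with 250 bp on both sides. Copy counts depended on the thresholds. The Pik3c3 window had 47 copies at a coverage of 50%, 1 without flanks and 7 with 500 bp on each side. The Chd9 window had 75 at an identity of 80%, 1 at 95%, 60 without flanks and 66 with 500 bp. The Ust window had 2 at 95%. At an identity of 80% over 50% of the window, 4 other listed peaks lay in copies, in place of 0. Of the 45 genes, 0 had a listed peak within 1 kb and 6 within 100 kb. Counted in all genes of the annotation, 6 of the 9 peaks lay in introns, in place of 4. For the unique shares, word lengths of 36, 40 and 100 bases were added after the data were seen. With them, the unique share in the peaks stayed above that off the peaks wherever a peak was long enough to hold a word. The Pik3c3 peaks were too short for words of 100 bases, so that length was not compared there. The smallest difference was 28.0 percentage points, for Camk2b at 100 bases, against 51.1 at 50 bases. For Chd9 the difference was 45 points at 36 bases, against 75.8 at 50. The median FC was 2.01 to 2.27 under its 6 alternatives. Of the 55 alternatives to the other values, 36 moved a count or share by at most 1.5 times.

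The FC values have no depth and no error, the reference is not of the Swiss strain, and the list shows no signal in the elements outside its differential peaks, and neither the level of H3K4me3 on a copy nor the copy of origin of a read was measured.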
